A study of Homo sapiens with 9 samples.

Results

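The SOX family was followed through 10 members, SOX2, SOX3, SOX4, SOX7, SOX9, SOX11, SOX15, SOX17, SOX18 and SOX21, each read by 1 probe set (a group of array probes for 1 transcript) that carries a single gene symbol. All 10 were measured, among 18417 genes with such a probe set. The arrays profiled H9, an established human embryonic stem cell line, in a derivative (H9-TCF7L1) that carries a TCF7L1 transgene switched on by doxycycline (Dox). Cells in PS medium + Dox had 48 h of primitive streak (PS) differentiation medium with 1 ug/ml Dox for 48 h, cells in PS medium had the same medium for 48 h without Dox, and untreated cells were kept in mTeSR1, a medium that maintains pluripotency, with 3 arrays per group. Every group carried the transgene. No group used here had Dox without it, or Dox in mTeSR1, and the labels do not say whether the line is 1 clone. The study used this over-expression to look for putative targets of TCF7L1.

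SOX proteins bind DNA through an HMG box, a domain also found in TCF/LEF factors such as TCF7L1, and both kinds of factor recognise similar short A/T-rich sites. The family falls into groups by sequence: SOX1, SOX2 and SOX3 (SOXB1), SOX14 and SOX21 (SOXB2), SOX4, SOX11 and SOX12 (SOXC), SOX5, SOX6 and SOX13 (SOXD), SOX8, SOX9 and SOX10 (SOXE), SOX7, SOX17 and SOX18 (SOXF), SOX15 (SOXG) and SOX30 (SOXH). SOX2 works with POU5F1 to hold pluripotency, and SOX17 is a defining factor of definitive endoderm, which arises through the primitive streak.

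The arrays were even in scale, with median intensities between 200 and 216 on the linear scale of the deposited values, and correlations over genes between arrays of a group ran from 0.989 to 0.997. TCF7L1 was measured first as the induced gene. Its intensity was 13100, 12433 and 2699 in PS medium + Dox, 1275, 1542 and 1611 in PS medium, and 3718, 3878 and 3572 in untreated cells. The third Dox array lay below the untreated arrays and above those in PS medium. Of 13 measured partners and pluripotency targets of SOX2, the summed intensity was 22273 to 24235 in PS medium + Dox, 21660 to 24146 in PS medium and 25519 to 27326 in untreated cells. POU5F1 and NANOG have no probe set with a single symbol and are not analysed here. In these bulk samples, fewer cells of a type and less RNA per cell cannot be told apart.

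With Dox in PS medium, SOX2, SOX9, SOX15 and SOX21 rose and SOX17 fell against PS medium alone. In PS medium without Dox, SOX17 rose against untreated cells while SOX2, SOX3, SOX4, SOX9 and SOX21 fell. The falls of SOX4 and SOX21 were less firm, with the call lost in 9 and 4 of 18 alternative fits. SOX2 and SOX9 in PS medium + Dox stood near their untreated levels, and SOX17 stood between the levels of the other 2 groups. SOX7, SOX11 and SOX18 passed the threshold in none of the 3 comparisons.

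**Figure D1:**
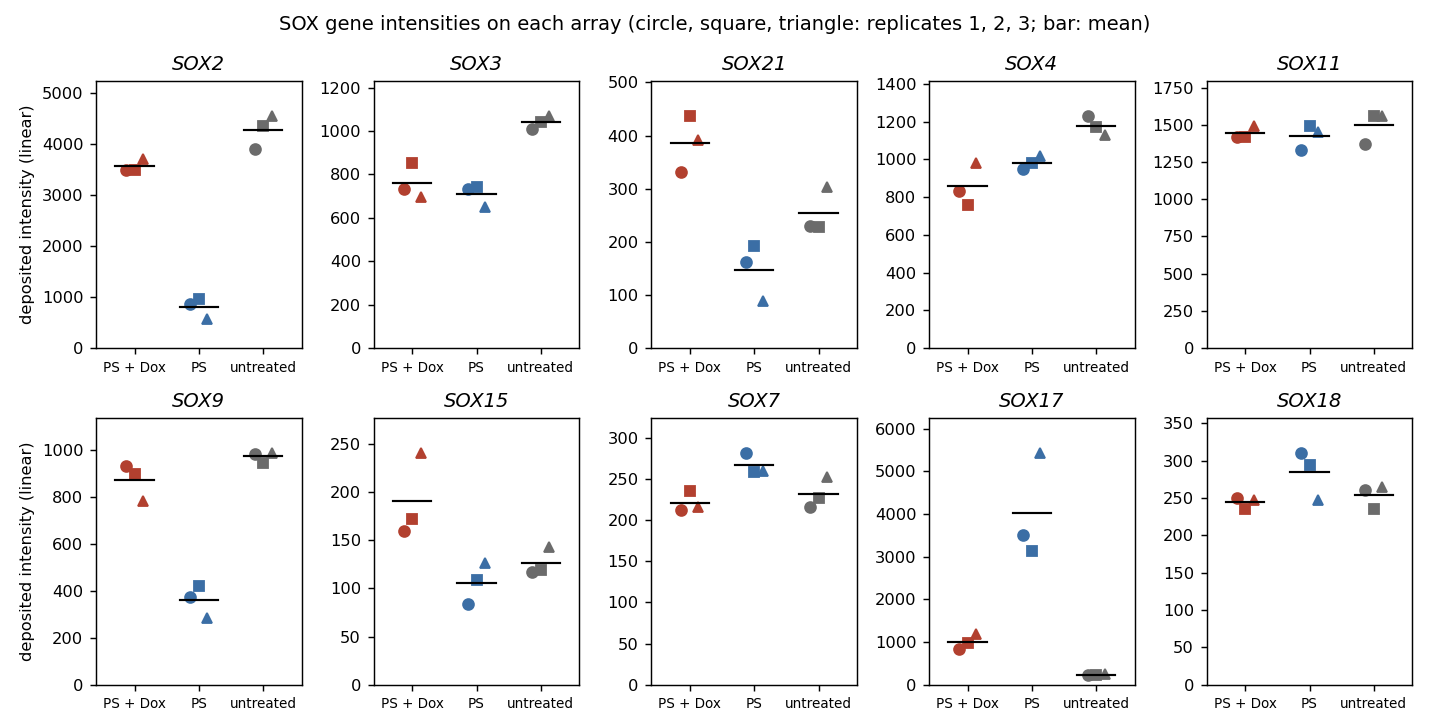
Deposited linear intensity (y axis, from 0, own scale per panel) of the 10 SOX genes on each array in PS medium + Dox, PS medium and untreated cells (x axis), with a symbol for each replicate number and a bar at the group mean. SOX2 averaged 3570, 807 and 4270 in these groups, and SOX17 averaged 1000, 4030 and 241.

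The tests were run with limma across all genes on quantile-normalized log2(intensity + 16), with p-values adjusted by Benjamini-Hochberg over 18417 genes and a threshold of 0.05. Fold changes are on that scale and understate the change of dim genes. The labels do not say that replicates were separate cultures, so p-values measure the spread between these arrays, which may be technical. In PS medium + Dox against PS medium, 5 of the 10 SOX genes passed, 4 higher and 1 lower. Over all genes 17.4% passed in this comparison, 8.91% higher and 8.44% lower. The median absolute log2 difference was 0.51 over the 10 SOX genes, 0.16 over 9 other measured SOX genes and 0.12 over all 18417 genes. The 10 were chosen with earlier results of these data known. In PS medium + Dox against untreated cells, 4 of 10 passed, 2 in each direction, where 30.3% of all genes passed. In PS medium against untreated cells, 6 of 10 passed, 1 higher and 5 lower, where 29.8% of all genes passed. On normalized values, the arrays of the groups did not overlap for 7 of the 10 SOX genes in each of the 3 comparisons. Over all genes this held for 30.9% with Dox against PS medium, 45% with Dox against untreated and 43.3% in PS medium against untreated cells. For Dox against PS medium the 7 include SOX18, whose PS medium replicate 3 stood at 8.04 and highest Dox arrays at 8.03. The deposited SOX18 intensities of these 2 groups overlapped. The 3 comparisons share arrays pairwise and are not independent of each other.

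**Figure D2:**
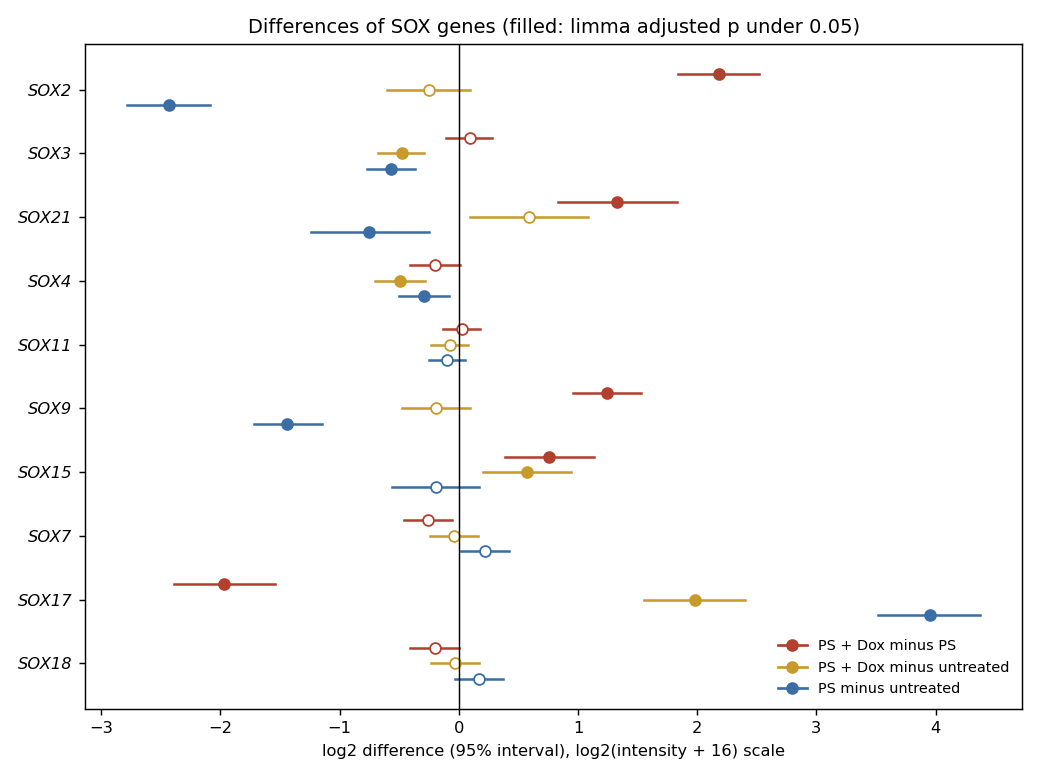
Log2 differences (x axis, log2(intensity + 16) scale, first-named group minus second) of the 10 SOX genes (y axis) in 3 comparisons, with 95% intervals from the limma fit that are not adjusted for the number of genes, and filled points where the adjusted p was under 0.05. SOX17 at 3.95 and SOX2 at -2.43 are the farthest points, both for PS medium minus untreated cells.

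Among the SOXB genes, SOX2 is the pluripotency and neural progenitor factor, SOX3 its close relative on the X chromosome, and SOX21 a counterpart that represses many SOXB1 targets. The deposited SOX2 intensity (probe set 8084165, gene at chr3:181711925-181714436, GRCh38.p14) was 3499, 3500 and 3711 in PS medium + Dox, 867, 974 and 579 in PS medium, and 3898, 4364 and 4561 in untreated cells. All Dox arrays lay above all arrays in PS medium, and below all untreated arrays by a narrow margin. SOX2 rose 4.53-fold with Dox against PS medium (log2 2.18 ± 0.16, SE, n = 3 per group, limma adjusted p = 7.74e-06). The Dox array with the lowest TCF7L1 intensity, replicate 3, had the highest SOX2 intensity of its group. Within that group it also had the highest SOX15 (241) and SOX17 (1189) and the lowest SOX9 (784), with SOX21 (391) in the middle. SOX2 fell by 2.43 on the log2 scale (SE 0.16) in PS medium against untreated cells, which is 5.39-fold (limma adjusted p = 1.10e-06). Between PS medium + Dox and untreated cells the SOX2 difference was -0.25 ± 0.16, with a 95% interval from -0.60 to 0.09 (limma adjusted p = 0.263), and it passed when PS medium arrays were left out of the fit (adjusted p = 0.0181) or when PS medium replicate 3 was (adjusted p = 0.0195). SOX2 lies within the long noncoding gene SOX2-OT, whose own level was not analysed here.

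SOX21 (probe set 7972291, gene at chr13:94709622-94712545) had intensities of 331, 437 and 391 in PS medium + Dox, 162, 193 and 88 in PS medium, and 229, 228 and 304 in untreated cells. The 3 groups did not overlap, with the Dox arrays highest. SOX21 rose 2.52-fold with Dox against PS medium (log2 1.33 ± 0.22, limma adjusted p = 0.00194). This difference was 1.43 and 1.1 with log offsets of 1 and 64. In PS medium against untreated cells SOX21 fell by 0.75 on the log2 scale (SE 0.22, limma adjusted p = 0.0283). That call did not hold without PS medium replicate 3 (log2 -0.45, adjusted p = 0.0558), nor when untreated replicate 1 (adjusted p = 0.0503), 2 (0.0531) or 3 (log2 -0.62, 0.105) was left out. Against untreated cells, SOX21 in PS medium + Dox was at 0.59 ± 0.22 (limma adjusted p = 0.0739), and it passed without PS medium replicate 3 (adjusted p = 0.00904) or 2 (0.0390) and without any PS medium array in the fit (0.00912).

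SOX3 (probe set 8175528, gene at chrX:140502985-140505069) had intensities of 735, 854 and 697 in PS medium + Dox, 731, 744 and 651 in PS medium, and 1007, 1042 and 1073 in untreated cells. Both differentiated groups lay below the untreated arrays and overlapped each other. SOX3 fell by 0.57 on the log2 scale (SE 0.09) in PS medium against untreated cells (limma adjusted p = 6.60e-04) and by 0.48 (SE 0.09) in PS medium + Dox against untreated cells (limma adjusted p = 0.00198). With Dox against PS medium its difference was 0.09, with a 95% interval from -0.11 to 0.28.

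The promoter windows of these 3 SOXB genes are shown because SOX2 and SOX21 changed with Dox and SOX3 did not pass, and because TCF7L1 is a DNA-binding factor. Each window runs from 250 bases before to 50 bases after the gene's start, from RefSeq on GRCh38.p14, and capitals mark matches to a TCF/LEF-type site.
SOX2, chr3:181711675-181711974, plus strand: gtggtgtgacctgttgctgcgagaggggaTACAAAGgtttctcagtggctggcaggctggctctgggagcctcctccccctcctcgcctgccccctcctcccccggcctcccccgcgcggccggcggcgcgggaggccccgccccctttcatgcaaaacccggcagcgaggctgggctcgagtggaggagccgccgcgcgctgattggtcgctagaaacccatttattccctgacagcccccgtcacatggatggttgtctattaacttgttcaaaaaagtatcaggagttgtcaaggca
SOX21, chr13:94712496-94712795, minus strand: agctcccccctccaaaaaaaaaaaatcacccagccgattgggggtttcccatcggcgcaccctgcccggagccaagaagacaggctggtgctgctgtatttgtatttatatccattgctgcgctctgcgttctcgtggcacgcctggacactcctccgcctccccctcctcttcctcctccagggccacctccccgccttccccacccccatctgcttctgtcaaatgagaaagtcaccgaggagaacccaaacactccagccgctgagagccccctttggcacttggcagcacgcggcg
SOX3, chrX:140505020-140505319, minus strand: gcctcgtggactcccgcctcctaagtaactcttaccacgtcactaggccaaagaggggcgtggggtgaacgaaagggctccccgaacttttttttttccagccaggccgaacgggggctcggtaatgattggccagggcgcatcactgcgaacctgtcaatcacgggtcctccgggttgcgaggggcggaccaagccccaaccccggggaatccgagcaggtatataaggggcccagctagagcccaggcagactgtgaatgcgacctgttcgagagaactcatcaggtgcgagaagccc
The search covered both strands for sites in which 2 bases, each A or T, stand before CAAAG (TCF/LEF-type) or before CAATG (SOX-type). SOX proteins can also bind the first set, so the sets do not separate the 2 families. The SOX2 window held 1 match, TACAAAG on the gene's strand, with its first base 221 bases before the start (position -221). The SOX21, SOX3 and SOX4 windows held 0 matches to either set. Of 35114 promoter windows of 300 bases, several for some genes, 13.8% held a TCF/LEF-type match and 8.52% a SOX-type match. A match describes letters in the window and was not tested for binding. Windows of the other members, SOX9 and SOX17 among them, were not used here.

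SOX17 and its SOXF relatives SOX7 and SOX18 are known from endoderm (SOX17) and from blood vessels (all 3). SOX17 (probe set 8146462, gene on chromosome 8, 54457935 to 54460892) had intensities of 830, 990 and 1189 in PS medium + Dox, 3518, 3127 and 5436 in PS medium, and 229, 237 and 257 in untreated cells. The 3 groups were well separated, with PS medium highest and untreated cells lowest. In PS medium + Dox, SOX17 fell by 1.97 on the log2 scale against PS medium (SE 0.19, 3.91-fold, limma adjusted p = 5.42e-05) and was 3.94-fold higher than in untreated cells (log2 1.98 ± 0.19, limma adjusted p = 2.44e-05). In PS medium against untreated cells it rose 15.4-fold (log2 3.95 ± 0.19, limma adjusted p = 1.51e-07).

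The other SOXF genes did not pass. SOX7 had intensities of 212, 235 and 216 in PS medium + Dox, 282, 258 and 260 in PS medium, and 216, 227 and 252 in untreated cells. The PS medium arrays were the highest, by a difference of -0.26 ± 0.09 for Dox against PS medium (limma adjusted p = 0.0780), which passed without Dox replicate 2 (log2 -0.32, adjusted p = 0.0460). SOX18 had intensities of 250, 235 and 248 in PS medium + Dox, 311, 294 and 248 in PS medium, and 261, 236 and 265 in untreated cells. PS medium replicate 3 lay with the Dox arrays. Without it, SOX18 differed by -0.30 with Dox against PS medium (limma adjusted p = 0.0294) and by 0.27 in PS medium against untreated cells (adjusted p = 0.0330), against -0.20 (0.173) and 0.17 (0.196) with all arrays.

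SOX9, the cartilage, gonad and neural crest factor of the SOXE group, followed the direction of SOX2. Its intensities (probe set 8009517, gene at chr17:72121020-72126416) were 931, 899 and 784 in PS medium + Dox, 373, 422 and 283 in PS medium, and 982, 946 and 989 in untreated cells. The PS medium arrays were far below the other 6, and the Dox arrays ended just under the untreated ones. SOX9 rose 2.37-fold with Dox against PS medium (log2 1.24 ± 0.13, limma adjusted p = 7.97e-05) and fell by 1.44 (SE 0.13, 2.71-fold, limma adjusted p = 1.29e-05) in PS medium against untreated cells. Between PS medium + Dox and untreated cells its difference was -0.19, with a 95% interval from -0.48 to 0.09 (limma adjusted p = 0.303).

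SOX15, the only SOXG gene and known from embryonic stem cells and muscle, was dim. Its intensities (probe set 8012220, gene at chr17:7588178-7590094) were 160, 172 and 241 in PS medium + Dox, 83, 109 and 126 in PS medium, and 117, 119 and 143 in untreated cells. All Dox arrays were above all others, and the PS medium and untreated arrays overlapped. SOX15 rose 1.70-fold with Dox against PS medium (log2 0.76 ± 0.17, limma adjusted p = 0.00876) and 1.48-fold against untreated cells (log2 0.57 ± 0.17, limma adjusted p = 0.0241). The second call did not hold when untreated replicate 1 (adjusted p = 0.0905) or 2 (0.0666) or Dox replicate 3 (log2 0.42, 0.0821) was left out. With log offsets of 1 and 64, the SOX15 difference for Dox against PS medium was 0.84 and 0.58.

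The SOXC genes SOX4 and SOX11, factors of progenitors and developing neurons, moved little. SOX4 (probe set 8117165, gene at chr6:21593751-21598619) had intensities of 831, 759 and 980 in PS medium + Dox, 947, 981 and 1017 in PS medium, and 1228, 1168 and 1135 in untreated cells. Untreated arrays were highest, and the other 2 groups overlapped through Dox replicate 3. SOX4 fell by 0.49 on the log2 scale in PS medium + Dox against untreated cells (SE 0.09, limma adjusted p = 0.00245). Its fall of PS medium against untreated cells (log2 -0.29 ± 0.09, limma adjusted p = 0.0379) was lost on values as deposited (0.0537), with median centring (0.0963), and without any 1 of the untreated or PS medium arrays or Dox replicate 1 (adjusted p up to 0.137). Dox against PS medium gave -0.20 ± 0.09 (limma adjusted p = 0.193), and -0.31 (adjusted p = 0.0228) without Dox replicate 3. SOX11 (probe set 8040070, gene at chr2:5692384-5701385) had intensities of 1417, 1422 and 1486 in PS medium + Dox, 1334, 1492 and 1449 in PS medium, and 1368, 1559 and 1564 in untreated cells. The groups overlapped, and the 95% interval for Dox against PS medium ran from -0.13 to 0.18 on the log2 scale.

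**Figure D3:**
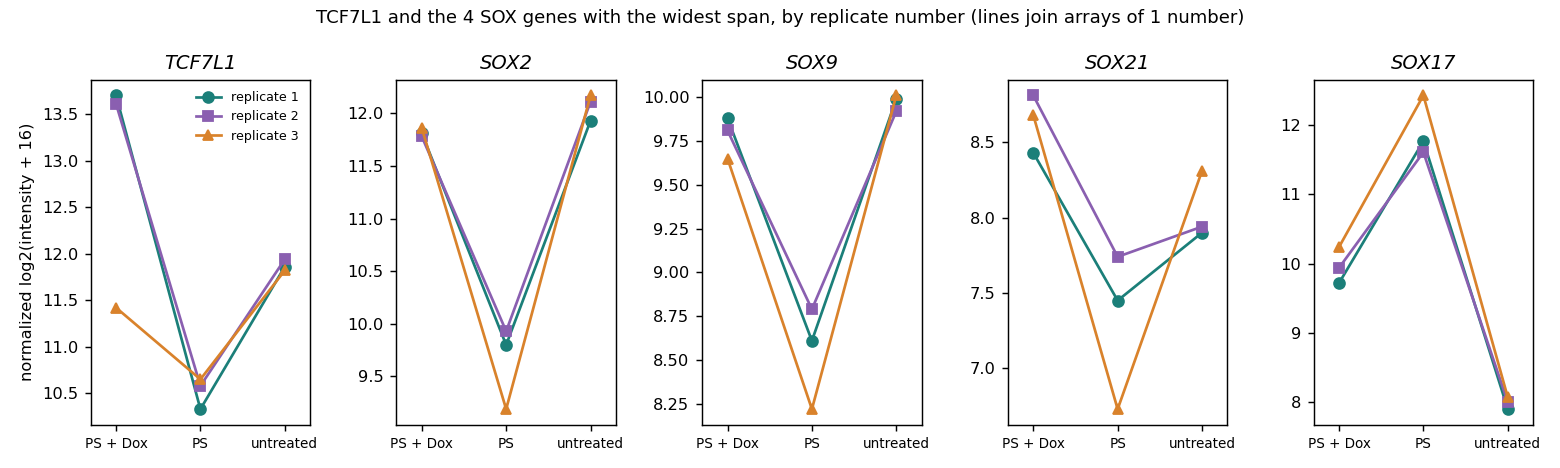
Normalized log2(intensity + 16) (y axis, own scale per panel, not from 0) of TCF7L1, SOX2, SOX9, SOX21 and SOX17 in PS medium + Dox, PS medium and untreated cells (x axis), with a line for each replicate number. Replicate 3 in PS medium is lowest of its group for SOX2, SOX9 and SOX21 and highest for SOX17, and replicate 3 with Dox is lowest for TCF7L1.

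Within PS medium, replicate 3 had the lowest SOX2 (579), SOX9 (283), SOX21 (88) and SOX3 (651) and the highest SOX17 (5436) intensity of its group. Taken by replicate number, the log2 difference of Dox minus PS medium for SOX2 was 2.01, 1.85 and 2.68. For SOX17 it was -2.05, -1.67 and -2.18, and for TCF7L1 it was 3.37, 3.03 and 0.77. The pair with the smallest TCF7L1 difference thus had the largest SOX2 and SOX17 differences of the 3, and it includes the PS medium array just described. Whether these arrays differ by culture or by handling was not tested.

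Likeness of pattern was described by the root mean square difference between genes over the 9 arrays, after subtracting each gene's own mean of normalized log2 values. Only genes whose group means spanned at least 1 on the log2 scale were considered, which held for SOX2, SOX9, SOX17 and SOX21 among the members and for 1573 other genes. Among the 4, SOX9 and SOX21 were most alike (0.40), then SOX2 and SOX9 (0.47), and SOX2 and SOX17 were least alike (2.67). This measure also counts the size of a change, and group means spanned 1.44 for SOX9, 1.33 for SOX21 and 2.43 for SOX2. Dox against untreated cells gave -0.25 for SOX2, -0.19 for SOX9 and 0.59 for SOX21, none past the threshold. Nearest to SOX2 were MEDAG (0.21), BNC2, a zinc finger protein (0.25), and FABP3, a fatty acid binding protein (0.28). CLU, a secreted chaperone (0.10), ATP6V0E2, a proton pump subunit (0.11), and IQGAP2, a scaffold protein (0.11), were nearest to SOX9. For SOX17 the nearest were CYP26A1, which breaks down retinoic acid (0.18), the ligand BMP2 (0.20) and ST6GALNAC2, a sialyltransferase (0.23). CAPN6 (0.18), KLHL32 (0.20) and MOB3B (0.21) were nearest to SOX21. BMP2, for example, had intensities of 803, 1438 and 1306 in PS medium + Dox, 3471, 4445 and 5924 in PS medium, and 235, 263 and 269 in untreated cells, the same order of groups as SOX17.

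Of the 9 other SOX genes measured, 3 passed with Dox against PS medium, where 17.4% of all genes passed. Against untreated cells, 3 passed with Dox and 4 in PS medium, where 30.3% and 29.8% of all genes passed. SOX13, a SOXD factor, had intensities of 761, 792 and 855 in PS medium + Dox, 492, 603 and 619 in PS medium, and 917, 929 and 770 in untreated cells. It rose by 0.47 ± 0.10 on the log2 scale with Dox (limma adjusted p = 0.00783) and fell by 0.63 (SE 0.10) in PS medium against untreated cells (adjusted p = 8.16e-04). SOX5, also SOXD and a partner of SOX9 in cartilage, had intensities of 290, 371 and 327 in PS medium + Dox, 204, 229 and 290 in PS medium, and 125, 112 and 129 in untreated cells. SOX5 rose against untreated cells in PS medium + Dox (2.53-fold, limma adjusted p = 2.1e-05) and in PS medium (1.89-fold, adjusted p = 2.94e-04). Its rise with Dox against PS medium (log2 0.42, adjusted p = 0.0451) was lost in 9 of 18 alternatives. SOX30, a dim gene known from testis, was lower with Dox against PS medium (limma adjusted p = 0.0132). Its Dox intensities of 56, 49 and 43 lay under the 25th percentile of their arrays, and the log2 difference of -0.41 became -0.52 and -0.25 when the log offset was 1 and 64. SOX8 and SOX12 fell in PS medium against untreated cells (log2 -0.31 and -0.24, limma adjusted p = 0.0373 and 0.0130), calls lost in 7 and 2 of 18 alternatives. With Dox against untreated cells, SOX30 differed by -0.49 on the log2 scale (-0.60 and -0.30 with offsets of 1 and 64, limma adjusted p = 0.00332) and SOX8 fell by 0.33 (adjusted p = 0.0279, lost in 5 of 18 alternatives). SOX1, SOX6, SOX10 and SOX14 passed in none of the 3 comparisons. SOX10, a neural crest factor, passed with Dox against untreated cells once the replicate number was a block (log2 -0.22, limma adjusted p = 0.0318), and in both Dox comparisons without Dox replicate 3 (log2 -0.29 against PS medium and -0.30 against untreated cells).

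The lists of genes around the SOX factors were read as counts. Over all genes, 8.91% passed as higher and 8.44% as lower with Dox against PS medium. In PS medium against untreated cells these shares were 14.2% and 15.7%. Of 14 measured endoderm genes around SOX17, 10 fell with Dox against PS medium, with 0 rises by limma (1 at an unadjusted p under 0.05), and the median log2 difference was -1.53, against 0 over all genes. GSC, an organizer factor, was 22.9-fold lower, LHX1, a LIM homeobox factor, 6.54-fold and GATA4, an endoderm and heart factor, 3.99-fold. In PS medium against untreated cells, 12 of these 14 rose, among them GATA6 (log2 8.03) and GATA4 (7.38). Untreated GATA6 intensities were 2, 4 and 9, below the 25th percentile of every array (55.6 to 62.5), so the size of its rise is set by the log offset. It was 9.96 with an offset of 1 and 6.32 with an offset of 64, where GATA4 gave 7.67 and 6.73 and the order of these genes turned. Bright genes weigh most in the summed intensity of the 14 genes. This sum was 26772 to 37368 in PS medium + Dox, 103005 to 133120 in PS medium and 1996 to 2154 in untreated cells. It moved with SOX17. The part of a change in the number of endoderm cells in the SOX17 values was not tested.

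The genes around SOX2 did not move as one. Of 13 measured partners and pluripotency targets, 3 rose and 3 fell with Dox against PS medium (median log2 0.15). PRDM14, a pluripotency regulator, rose by 1.07 on the log2 scale, while LEFTY1, a Nodal antagonist whose probes may also bind its near-copy LEFTY2, fell by 1.45, a call lost without Dox replicate 1 (adjusted p = 0.0514), and L1TD1, an RNA-binding protein, fell by 1.05. In PS medium against untreated cells 3 rose and 7 fell, among them NODAL, the ligand (log2 2.13), and FOXD3, a forkhead factor (log2 -2.55). Of 13 neural genes, 4 fell and 0 rose by limma with Dox against PS medium (2 rose at an unadjusted p under 0.05): OTX2 (log2 -1.55), ZIC2 (-1.38), POU3F1 (-0.90) and LHX2 (-0.38). In PS medium against untreated cells, 1 of the 13 neural genes rose, OTX2 (log2 1.08), and 3 fell, POU3F1 (-1.69) among them. The summed intensity of the neural genes was 7009 to 7951 in PS medium + Dox, 13404 to 14379 in PS medium and 11386 to 12387 in untreated cells. Of these sums OTX2 alone gave 1697 to 2057, 5116 to 6478 and 2328 to 2782. ZIC2 gave 1247 to 1887, 4028 to 4399 and 4527 to 4919.

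Around SOX7, SOX17 and SOX18, 1 of 15 endothelial genes, SOX7 and SOX18 among the 15, rose and 2 fell with Dox against PS medium, KDR, a VEGF receptor (log2 -1.35), FLI1 (-0.66) and, upward, ERG (0.32, lost without PS medium replicate 1 or Dox replicate 3). Their summed intensity was 4435 to 4952 in PS medium + Dox, 7201 to 8104 in PS medium and 5772 to 6310 in untreated cells, with KDR giving 1251 to 1806, 3839 to 4482 and 2288 to 2588 of it. In PS medium against untreated cells, 1 of the 15 rose, KDR (log2 0.76), and 2 fell. Among these 2 was TEK, an angiopoietin receptor (-0.86), a call lost in 8 of 18 alternatives. Around SOX9, 2 of 10 cartilage genes, a list that holds SOX5, SOX6 and SOX8, rose and 0 fell by limma with Dox against PS medium (0 also unadjusted), SOX5 and COL9A1 (0.34, lost in 12 of 17 alternatives). In PS medium against untreated cells, 2 of the 10 cartilage genes rose and 3 fell. HAPLN1, a cartilage link protein, rose by 3.51 on the log2 scale (2.81 with a log offset of 64). COL9A1, a cartilage collagen chain, fell by 1.04. Of 12 amnion and surface ectoderm genes, 8 rose with Dox against PS medium and 0 fell by limma (0 also unadjusted). The risers included DLX5 (log2 4.34), ISL1 (4.01) and KRT7 (1.68). KRT7 intensities were uneven with Dox, at 252, 190 and 699. Its difference ran from 1.16 to 2.01 with 1 array left out, and the call was kept in 18 of 18 alternatives. The summed intensity of this list was 40979 to 44626 in PS medium + Dox, 22268 to 24256 in PS medium and 6032 to 6427 in untreated cells. TFAP2A alone gave 16479 to 18260, 6483 to 9636 and 191 to 207 of these sums. The ISL1 difference was 3.38 with a log offset of 64. Of these 12 genes, 7 rose and 1 fell in PS medium against untreated cells. TFAP2A rose by 5.28, and HAND1 rose by 6.73, a size set by the log offset (7.75 with an offset of 1 and 5.44 with 64), since its untreated intensities of 41, 13 and 7 lay below the 25th percentile of every array. KRT7 fell by 1.75 on the log2 scale in PS medium against untreated cells (limma adjusted p = 0.00289), and with Dox against untreated cells its difference was -0.07 ± 0.35. The part of such cells in the rises of SOX9, SOX15 and SOX21 was not tested. Of 8 fibroblast markers, 1 rose and 1 fell with Dox against PS medium, with sums of 3312 to 4127 in PS medium + Dox, 3307 to 3566 in PS medium and 6182 to 6394 in untreated cells.

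**Figure D4:**
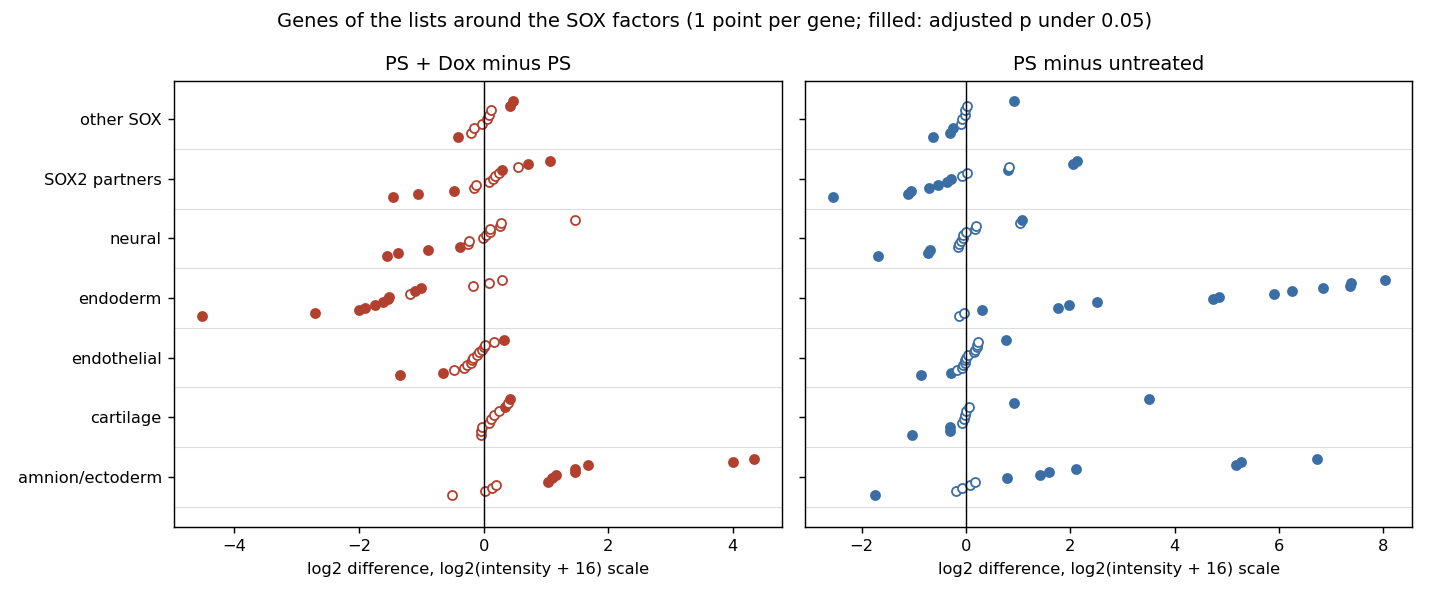
Log2 differences (x axis, log2(intensity + 16) scale) of the genes of 7 lists (y axis, 1 point per gene, spread vertically in order of value) for PS medium + Dox minus PS medium (left) and PS medium minus untreated cells (right), filled where the limma adjusted p was under 0.05. Endoderm genes lie mostly left of 0 in the left panel (10 of 14 lower) and right of 0 in the right panel (12 of 14 higher).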

How the data were processed

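The authors deposited linear intensity per probe set for 9 arrays, made with Affymetrix Expression Console 1.1.1 and PLIER 2.0, per the submitters' processing notes. How the background was corrected and the arrays scaled to each other is not given in the sources used here. Of 33297 probe sets, 19460 had 1 gene symbol in the platform annotation, 19429 of them were matched by gene number to current symbols (GRCh38.p14), and each of 18417 genes was represented by its brightest probe set. The deposited intensities were turned here into log2(value + 16), quantile-normalized over all probe sets and fitted with limma 3.58.1 under R 4.3.3 (1 mean per group, all 9 arrays, eBayes with a trend, 6 residual degrees of freedom), with Benjamini-Hochberg adjustment at 0.05. Quantile normalization compresses differences at the top of the scale. The number of arrays, 3 per group, limits the precision.

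The members and lists were chosen with earlier results of these data known. Named were the 10 members, TCF7L1, the other SOX genes, up to 3 genes per list with the largest called change for Dox against PS medium and up to 2 for PS medium against untreated cells, and the 3 genes most like each member. LHX2 and the BMP2 values were chosen after their values were seen. Replicate numbers come from the titles. Deviations from group means correlated between same-numbered arrays at 0.245, 0.428 and 0.246 for Dox and PS medium, at 0.246, 0.309 and 0.297 for Dox and untreated, and at 0.0856, 0.397 and 0.271 for PS medium and untreated. Arrays with different numbers were not compared in this way, so whether the numbers mark pairs is not settled. The main fit used no pairs, and a replicate block was fitted as an alternative. Tested on simulated data for Dox against PS medium (18417 genes), the fit recovered 91% of 100 genes changed 2-fold and 99% of 100 changed 4-fold, with 12 false calls. The simulated noise was independent between arrays and no other genes were changed, unlike the data, so these rates need not hold for them. Files were read with the data.table package (version 1.17.8), and figures drawn with matplotlib 3.10.9 under Python 3.11.15.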

Additional observations from a re-analysis of the deposited data

How the results depend on the processing

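Alternatives were values as deposited, median centring, log offsets of 1 and 64, a filter on the dimmest genes (SOX15 falls out), all probe sets, no trend, the 2 groups alone, a replicate block, and each array left out. Over 537 member values, 510 kept their direction and side of the threshold, 16 lost a call, 9 gained one and 2 turned sign. The calls of SOX2, SOX9, SOX15, SOX17 and SOX21 for Dox against PS medium were kept in all alternatives that gave a value. With the replicate block, 5, 4 and 6 members passed for Dox against PS medium, Dox against untreated and PS medium against untreated, as without it, and the block changed no member's call, while the share of all genes that passed was 24.3%, 38.3% and 37.7%, against 17.4%, 30.3% and 29.8% without the block. With 1 array left out, these counts were 5 to 6, 3 to 6 and 4 to 6, and those of all genes 2405 to 3076, 4166 to 6028 and 4161 to 5634. Uncalled differences near 0 turned sign. For PS medium against untreated, SOX10 gave 0.01 on values as deposited and 0.04 with median centring, and SOX14 gave -0.01 as deposited. With 1 array left out, PS medium against untreated ran from -0.04 to 0.01 for SOX10, -0.08 to 0.07 for SOX6 and -0.10 to 0.13 for SOX14. Dox against PS medium ran from -0.01 to 0.06 for SOX11, -0.08 to 0.09 for SOX8 and -0.06 to 0.16 for SOX14. Dox against untreated ran from -0.11 to 0.01 for SOX7 and -0.05 to 0.15 for SOX14. Their cause was not tested.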
